A study of Mus musculus with 29 samples.

Results

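The cytochrome P450 family of the mouse was followed in lung RNA on 29 single-colour microarrays. Members were all genes whose symbol is Cyp followed by a number, letters and a number, named through the accession that the scanner files give each probe. The rule found 72 genes among the 17178 genes named on the array, and it used no measured value. Cyp3a41a, Cyp4a12a, Cyp4a12b and Cyp51 have symbols of another form and were left out by it. Each gene was represented by 1 probe, the kept one with the highest mean signal. The mice were C57BL/6, aged 6 to 8 weeks, wild type or Klf15-/-, and were given dexamethasone at 2.5 mg/kg or saline, the vehicle, for 4 or 8 h. Dexamethasone is a synthetic glucocorticoid, and Klf15 is a Krüppel-like transcription factor that glucocorticoids are known to induce. Arrays numbered 4 for wild type with saline at 4 h, 3 for wild type with saline at 8 h, 4 for wild type with dexamethasone at 4 h and 3 for wild type with dexamethasone at 8 h. The knockout had 3 arrays with saline at 4 h and 4 in each of the other groups. The labels do not say how the Klf15 allele was made or whether all cells lack it. The series title frames the design around the joint action of the receptor and Klf15 on the time course of expression.

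P450 enzymes are haem proteins that insert an oxygen atom into drugs, pollutants, steroids, fatty acids, sterols and retinoids. Most sit in the endoplasmic reticulum and take electrons from the reductase Por, while a mitochondrial group is served by ferredoxin (Fdx1) and its reductase (Fdxr). Liver holds most of the family's expression, and lung has a set of its own, in which club cells of the airway carry Cyp2f2 and Cyp4b1, enzymes known for turning inhaled compounds into reactive products. Many P450 genes are induced through ligand-activated receptors such as Ahr, CAR, PXR and Ppara.

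Levels are given as the log2 of the processed signal relative to the array's own 75th percentile, so that 0 is the 75th percentile and 1 unit is a 2-fold change. Of the 43379 spots other than controls on an array, the scanner flagged 75.5 to 88.5% as well above background. With 3 or 4 arrays to a group, the array number limits the precision here. The labels describe biologic quadruplicates, although some groups have 3 arrays, and p-values set each difference against the spread between arrays of a group. The main fit leaves out slide, which took a median of 58.4% of that spread over all genes, as described below. The Klf15 probe read 1.95 to 4.29 on wild-type arrays and -0.88 to 1.37 on knockout arrays, with every knockout array below every wild-type array; where this probe lies relative to the deleted part was not determined here. Lung markers were present, with 5 alveolar type 2 markers averaging 2.36 to 3.16 on the arrays. All 6 B cell markers were lower with dexamethasone in each of the 4 comparisons with saline, their mean spanning -1.16 to -0.25 on saline arrays and -3.98 to -2.17 on dexamethasone arrays. Endothelial markers moved with them, with 5 to 7 of 8 lower. In bulk tissue, fewer cells of a type and less RNA per cell cannot be told apart. The log2 ratio of a gene's bright to its dim probe was centred on the gene's own mean over all arrays and averaged over 2546 genes. This centred value was -0.37 to -0.12 on the 7 knockout saline arrays and -0.08 to 0.29 on the 22 others. Bright and dim probes thus lay closer together on these 7 arrays than on the others. These 7 arrays enter every knockout dexamethasone effect and every saline genotype comparison below. The part of this ratio in the P450 results was not tested.

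The lung arrays measured most of the family. Of the 72 members, 46 were well above background on all 29 arrays, 2 on none (Cyp2c39 and Cyp4a31), and the rest on 1 to 28 arrays. After the filter, which asks for at least 3 arrays of 1 group well above background, 62 members could be tested. The 10 that could not were Cyp2a12, Cyp2c38, Cyp2c39, Cyp2c54, Cyp2d34, Cyp3a44, Cyp4a29, Cyp4a31, Cyp7a1 (the rate-limiting enzyme of bile acid synthesis) and Cyp11b2 (aldosterone synthase). Of the 62, 48 passed the filter in all 8 groups and 14 in fewer, of which Cyp2ab1, Cyp2j5 and Cyp3a25 in 1 group only. By family number, 38 of 44 members of CYP1 to CYP3, labelled drug- and toxicant-metabolising, were tested, and 29 were well above background on every array. This label is coarse, since Cyp2c23, Cyp2d9, Cyp2j9 and Cyp2r1 are counted there and some of them are given other roles below. For the fatty acid enzymes of CYP4 the numbers were 10 of 12 tested and 9 on every array, for the sterol, bile acid and vitamin D enzymes of CYP7, CYP8B, CYP24, CYP27, CYP39 and CYP46 7 of 8 and 5, and for the steroid hormone enzymes of CYP11, CYP17, CYP19 and CYP21 4 of 5 and 1. Both CYP26 retinoic acid enzymes and Cyp20a1, an orphan enzyme, were tested.

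Dexamethasone changed between 16 and 22 of the 62 P450 genes, a share near that of all genes in wild type and below it in the knockout. In the fit across all genes, with a call at an adjusted p under 0.05, 22 of the 62 were called in wild type at 4 h, which is 35.5% of members against 36.8% of all 15350 genes tested. Of these, 13 were higher and 9 lower, where 15.2% of all genes were higher and 21.6% lower. In wild type at 8 h, 13 were higher and 6 lower (30.6% called against 24.0% of all genes, of which 9.47% higher and 14.5% lower). In the knockout at 4 h, 10 were higher and 6 lower (25.8% called against 42.4% of all genes, of which 23.9% higher and 18.5% lower). In the knockout at 8 h, 16 were higher and 6 lower (35.5% called against 42.9% of all genes, of which 25.2% higher and 17.7% lower). For the knockout at 4 h, normexp background correction with quantile normalization gave 7 higher and 7 lower, and cyclic loess gave 7 higher and 6 lower. The median log2 change of the 62 was 0.38 in wild type at 4 h against -0.02 over all genes, and -0.01 against -0.06 at 8 h. In the knockout it was 0.16 against 0.03 at 4 h and 0.48 against 0.10 at 8 h. These medians include 28 members never called with dexamethasone, in which slide took a median of 72.0% of the spread within groups. The part of slide in the medians was not tested. Across the 4 comparisons, 34 members were called in at least 1, none of them in both directions, and 28 in none. The share of all genes called in at least 1, or in all 4, is not given here. Nothing about the family is therefore read from these counts or from the lists that follow. Higher in all 4 were Cyp2b9, Cyp2b10, Cyp2b13, Cyp2d9, Cyp2f2, Cyp3a13, Cyp4b1 and Cyp39a1, and lower in all 4 were Cyp2j9, Cyp4f18 and Cyp4f39. By family number, CYP1 to CYP3 gave 7 to 12 higher and 2 to 5 lower of 38 tested, CYP4 1 to 2 higher and 2 to 3 lower of 10, and the sterol enzymes 1 to 2 higher and 0 to 1 lower of 7. Groups without overlap were common. In wild type at 4 and 8 h and knockout at 4 and 8 h, 19, 22, 18 and 19 of the 62 had none. The shares of all genes were 34.1, 38, 45.4 and 36.7%.

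**Figure D1:**
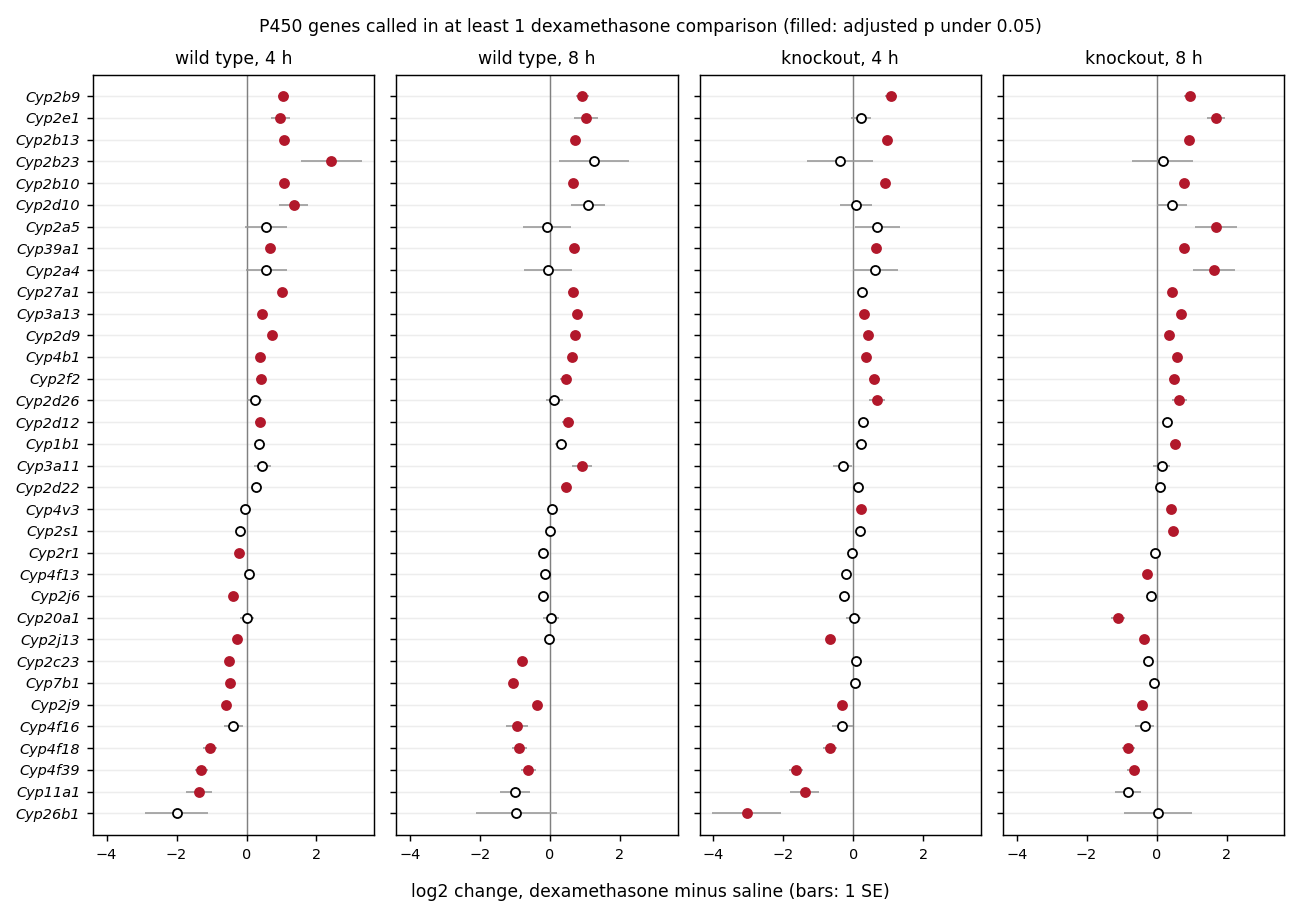
The log2 change with dexamethasone against saline (horizontal axis, with bars of 1 SE) of the 34 P450 genes called in at least 1 of the 4 comparisons, 1 panel per genotype and time. Filled points have an adjusted p under 0.05; Cyp2b9, Cyp2b10 and Cyp2b13 lie to the right of 0 in every panel and Cyp4f18 and Cyp4f39 to the left, while Cyp7b1 and Cyp2c23 are filled in the wild-type panels alone.

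Cyp2b9, Cyp2b10 and Cyp2b13 rose in all 4 comparisons. They lie together on chromosome 7 with Cyp2s1 and Cyp2a4. Cyp2b10 is the classical target of the receptor CAR, and Cyp2b9 and Cyp2b13 are its close relatives. The 250 bases before the starts of Cyp2b9 (chr7:26173159-26173408, plus strand) and Cyp2b13 (chr7:26061245-26061494, plus strand) are shown because both genes rose throughout and their upstream sequences are nearly the same. Both come from RefSeq on GRCm38.p6, 5′ to 3′, with capitals at the differing bases.
Cyp2b9: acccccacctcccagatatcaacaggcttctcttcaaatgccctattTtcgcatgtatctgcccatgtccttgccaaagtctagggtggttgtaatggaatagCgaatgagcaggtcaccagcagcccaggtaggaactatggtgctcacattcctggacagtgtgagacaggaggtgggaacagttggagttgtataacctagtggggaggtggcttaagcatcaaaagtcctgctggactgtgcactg
Cyp2b13: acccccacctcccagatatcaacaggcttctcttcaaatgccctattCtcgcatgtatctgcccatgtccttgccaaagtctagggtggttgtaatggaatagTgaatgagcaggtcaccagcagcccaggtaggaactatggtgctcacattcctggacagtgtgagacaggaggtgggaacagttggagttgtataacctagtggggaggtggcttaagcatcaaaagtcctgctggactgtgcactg
The windows are identical at 248 of 250 positions, and the differences, with the base of Cyp2b9 first and positions counted from 1 at the 5′ end, are T48C and C104T. Cyp2b10 aligned with Cyp2b9 at 182 of 260 positions (70.0%). Neither the full glucocorticoid response element, searched as GNACA and TGTNC with 3 bases between them, nor its half-site TGTTCT is in these windows on either strand. Over the family, the full element was in 0 of 65 windows of the 56 members with a sequence, against 0.387% of all 32851 windows of this length, and the half-site in 11 of 65, against 16.1%. With so low a share of all windows, 0 of 65 was likely in any case. Only 250 bases were searched, and a lack of matches is no evidence about receptor binding. Probe and transcript sequences were not compared here, and for relatives as close as Cyp2b9 and Cyp2b13 each value is uncertain as a measure of 1 gene.

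Cyp2b10 read 3.35, 3.12, 3.41 and 3.28 on the wild-type saline arrays at 4 h and 4.28, 4.33, 4.45 and 4.36 with dexamethasone. At 8 h the wild-type arrays read 3.64, 3.96 and 3.76 with saline and 4.43, 4.39 and 4.51 with dexamethasone. In the knockout it read 3.45, 3.46 and 3.52 with saline and 4.47, 4.34, 4.19 and 4.54 with dexamethasone at 4 h, then 3.93, 3.73, 3.99 and 3.77 and 4.89, 4.46, 4.62 and 4.59 at 8 h. Every dexamethasone array thus lay above every saline array of its genotype and time. The rise in wild type was 2.09-fold at 4 h (log2 1.06 ± 0.09 SE, adjusted p = 2.86e-09) and 1.57-fold at 8 h (log2 0.66 ± 0.10 SE, adjusted p = 6.89e-05). In the knockout it was 1.88-fold at 4 h (adjusted p = 1.13e-07) and 1.72-fold at 8 h (adjusted p = 3.91e-07). Cyp2b9 rose by 1.05, 0.92, 1.08 and 0.95 on the log2 scale in wild type at 4 and 8 h and knockout at 4 and 8 h (adjusted p of 6.72e-04 or less). In the same order Cyp2b13 rose by 1.08, 0.71, 0.96 and 0.94 (adjusted p of 1.05e-05 or less). Neither gene's groups overlapped in any of these comparisons. The dimmer kept probe of Cyp2b13 had log2 changes of 1.02 and 0.61 in wild type and 0.42 and 1.23 in the knockout, none of them called. Dexamethasone effects on the 3 genes did not pass the test of a difference between genotypes or times.

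**Figure D2:**
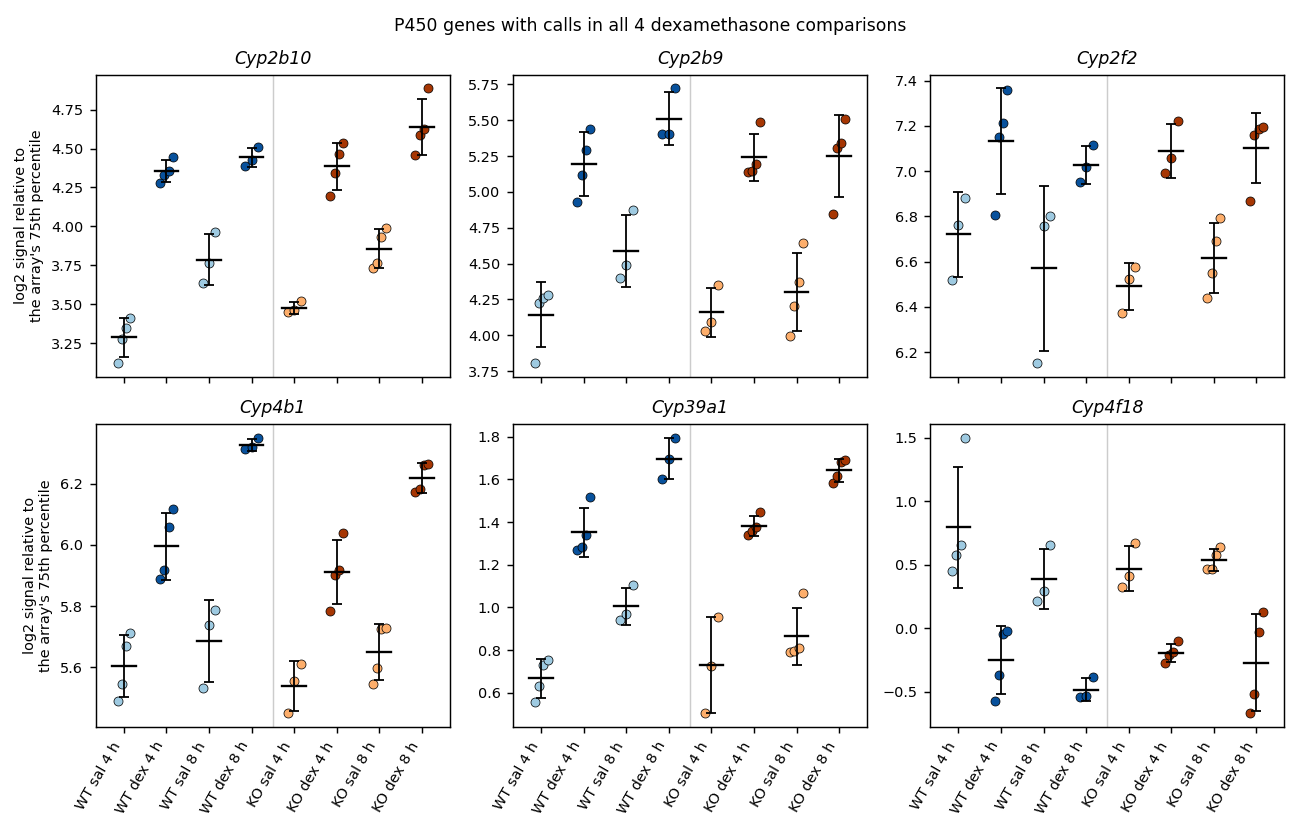
Levels of 6 P450 genes on each array (vertical axis, log2 over the 75th percentile of the array), by group (WT wild type, KO knockout, sal saline, dex dexamethasone), with the group mean and SD as bars. Cyp2b10, Cyp2b9, Cyp2f2, Cyp4b1 and Cyp39a1 have higher means with dexamethasone in each genotype and time, and Cyp4f18 lower ones.

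Of the other Cyp2b genes, Cyp2b23 was called in wild type at 4 h alone (log2 2.42 ± 0.87 SE, adjusted p = 0.0321), where its saline arrays spanned -8.72 to -6.37, with 2 of 4 well above background, and its dexamethasone arrays -6.52 to -3.83. The groups overlapped, and slide took 98.0% of its spread within groups. Replicates carry the numbers of the labels, each used once in the series, and alternatives are other normalizations, filters, probe choices and models. The call ended under 2 of 13 alternatives and without any 1 of replicates 33, 36, 49 and 52 (adjusted p of 0.0855 to 0.110). Cyp2b19, the keratinocyte enzyme, was called in none of the 4.

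Cyp2f2 and Cyp4b1, both known from airway club cells, also rose in all 4 comparisons. Cyp2f2, the enzyme that activates naphthalene, read 6.15, 6.80 and 6.76 on wild-type saline arrays at 8 h and 6.95, 7.11 and 7.02 with dexamethasone, and in the knockout at 8 h 6.44, 6.69, 6.79 and 6.55 and 7.16, 6.87, 7.19 and 7.19. Its log2 rise was 0.41 ± 0.15 (SE) in wild type at 4 h, where the groups overlapped, 0.46 ± 0.16 in wild type at 8 h, 0.60 ± 0.16 in the knockout at 4 h and 0.48 ± 0.13 in the knockout at 8 h, with adjusted p-values of 0.0300, 0.0367, 0.00348 and 0.00598. The knockout calls each ended under 4 of 14 alternatives, other scalings and the deposited table, with log2 changes as low as 0.08 at 4 h and 0.06 at 8 h. The wild-type call at 4 h ended under 3 of 14 alternatives and without any 1 of replicates 35, 36, 50, 51 and 52 (adjusted p of 0.0519 to 0.160). The one at 8 h ended under 2 of 14 alternatives and without any 1 of replicates 37, 54, 55 and 56 (adjusted p of 0.0584 to 0.252). One array each of wild-type saline and knockout dexamethasone at 4 h had no usable Cyp2f2 spot and was left out of its fit. Cyp4b1, which hydroxylates fatty acids and activates furan toxins in lung, read 5.53, 5.74 and 5.79 with saline and 6.31, 6.32 and 6.35 with dexamethasone in wild type at 8 h. It rose 1.31-fold and 1.56-fold in wild type at 4 and 8 h and 1.29-fold and 1.49-fold in the knockout (adjusted p of 3.48e-04 or less), with no overlap between groups, although the log2 change in the knockout at 4 h, 0.37, was -0.01 under cyclic loess. Only the rise in wild type at 8 h held under every alternative. Cyp2s1, an epithelial enzyme known to respond to Ahr, rose in the knockout at 8 h alone (log2 0.47 ± 0.10 SE, adjusted p = 5.57e-04), and that call ended under quantile normalization, normexp and cyclic loess. Its other changes were -0.20 and 0.00 in wild type at 4 and 8 h and 0.19 in the knockout at 4 h. None of these was called (adjusted p of 0.133, 0.987 and 0.162). Of 7 club cell markers tested, 1 was higher in wild type at 4 h, 0 at 8 h, and 3 and 4 in the knockout at 4 and 8 h, where 1 was lower at 4 h. Scgb1a1, the main secretory protein of club cells, had log2 changes of 0.40, 0.37, 0.60 and 0.46 in the same order. It was called in the knockout alone. The haemoglobin gene Hba-a1 had changes of 0.36, 0.13, 0.57 and 0.50, and the surfactant gene Sftpc 0.23, 0.33, 0.53 and 0.49. The 4 club cell markers measured on every array, which leave out Scgb1a1, Cbr2 and Aldh1a1, averaged 1.29 to 1.64 with dexamethasone and 0.05 to 1.07 with saline in the knockout at 8 h. The 75th percentile of the processed signal, used for scaling, also differed between groups. On knockout arrays it was 2829 to 3273 with saline and 1757 to 2361 with dexamethasone at 4 h. At 8 h it was 2518 to 3064 and 1811 to 2343. In the same order, wild-type arrays had 2125 to 2718 and 1636 to 2428 at 4 h. Theirs were 2413 to 3331 and 2123 to 2331 at 8 h. The part of this scaling, and of the genes above, in the rises of Cyp2f2 and Cyp4b1 was not tested.

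Cyp2a4 and Cyp2a5, near-identical steroid and coumarin hydroxylases whose probes may share signal, rose in the knockout at 8 h. Cyp2a5 read 2.74, 1.41, 3.53 and 3.30 with saline and 3.59, 5.24, 5.37 and 3.56 with dexamethasone, and 2 of the 4 dexamethasone arrays stood above the others. The log2 rise was 1.70 ± 0.60 (SE, adjusted p = 0.0245) for Cyp2a5 and 1.64 ± 0.59 (adjusted p = 0.0293) for Cyp2a4. The call of Cyp2a5 ended under 3 of 14 alternatives and without any 1 of replicates 46, 62 and 63 (adjusted p of 0.0819 to 0.111). That of Cyp2a4 ended under 6 of 14 alternatives and without any 1 of replicates 46, 62 and 63 (adjusted p of 0.0936 to 0.124). In both cases slide as a fixed block was 1 of these alternatives. Cyp2e1, which oxidises ethanol and small solvents, rose in wild type at 4 h (log2 0.97 ± 0.27 SE, adjusted p = 0.00614), in wild type at 8 h (log2 1.02 ± 0.34, adjusted p = 0.0329) and in the knockout at 8 h, where saline arrays read -2.45, -1.93, -1.63 and -1.80 and dexamethasone arrays -0.34, 0.58, -0.10 and -1.16 (3.24-fold, adjusted p = 2.46e-05). The change in the knockout at 4 h was 0.23 (adjusted p = 0.561), and the effect was larger at 8 than at 4 h there (difference 1.46 ± 0.39 SE, adjusted p = 0.0423). In wild type, the fit with slide as a fixed block gave 0.76 at 4 h (adjusted p = 0.0617) and 0.86 at 8 h (adjusted p = 0.101). The call in wild type at 8 h ended under 1 of 14 alternatives and without any 1 of replicates 38, 39, 54, 55 and 56 (adjusted p of 0.0572 to 0.178). That of the time difference ended under 4 of 14 alternatives and without any 1 of replicates 41, 43, 44, 45, 46, 48, 57, 58, 59, 60, 61, 62 and 63 (adjusted p of 0.0513 to 0.154). With slide as a fixed block the time difference was 1.16 (adjusted p = 0.181). One wild-type saline array at 8 h had no usable Cyp2e1 spot and was left out. Adipocyte markers, 4 of 5, were higher in the knockout comparison at 8 h, with arrays averaging -1.23 to 0.99 against -2.29 to -1.67 with saline. Heart markers averaged 1.46 to 2.48 with dexamethasone and -1.53 to 1.52 with saline there, and club cell markers are given above. The part of these 3 sets of markers in the Cyp2e1 and Cyp2a results was not tested. Hepatocyte markers, in which 1 to 3 of 7 were higher with dexamethasone, averaged -6.40 to -3.37 over the arrays.

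Cyp3a13, a CYP3A enzyme also found outside the liver, and members of Cyp2d rose as well. Cyp3a13 read -0.32, -0.44 and -0.26 with saline and 0.67, 0.34 and 0.29 with dexamethasone in wild type at 8 h, and -1.16, -1.30, -1.04 and -1.12 and -0.66, -0.35, -0.39 and -0.43 in the knockout, without overlap. Its log2 rise was 0.44 ± 0.11 and 0.77 ± 0.12 (SE) in wild type at 4 and 8 h, and 0.30 ± 0.11 and 0.70 ± 0.11 in the knockout, with adjusted p-values of 0.00203, 5.84e-05, 0.0400 and 1.35e-05. In wild type at 4 h the groups overlapped, and the difference was 0.03 within slide 3 and 0.60 within slide 7. The call in the knockout at 4 h ended without any 1 of replicates 43, 44, 57 and 60 (adjusted p of 0.0844 to 0.122). Cyp3a11, the main CYP3A enzyme of liver, was called in wild type at 8 h (0.91, adjusted p = 0.0225) and in no other of the 4. The call ended under 2 of 14 alternatives and without any 1 of replicates 37, 38, 54 and 56 (adjusted p of 0.0549 to 0.116). Cyp2d9, a steroid hydroxylase, rose by 0.72 and 0.72 in wild type and by 0.41 and 0.34 in the knockout (adjusted p of 0.00698 or less), with no overlap. The call in the knockout at 8 h ended under 2 of 14 alternatives. Cyp2d12 was called higher in wild type at 4 h (0.38) and 8 h (0.52), with adjusted p-values of 0.0418 and 0.0249. The call at 4 h ended under 5 of 14 alternatives and without any 1 of replicates 33, 34, 35, 36, 50 and 51 (adjusted p of 0.0629 to 0.146). That at 8 h ended under 2 of 14 alternatives and without any 1 of replicates 39 and 54 (adjusted p of 0.133 to 0.163). Cyp2d22 was called higher in wild type at 8 h (0.47), a call that ended under 2 of 14 alternatives, without replicate 39 (adjusted p = 0.0937) and without replicate 54. Cyp2d26 was called higher in the knockout at 4 h (0.67) and 8 h (0.65). The call at 4 h ended under 1 of 14 alternatives and without any 1 of replicates 43 and 44 (adjusted p of 0.0846 to 0.0920). That at 8 h ended under 2 of 14 alternatives and without any 1 of replicates 47 and 62 (adjusted p of 0.0597 to 0.0710). Cyp2d10 was called in wild type at 4 h (1.35, adjusted p = 0.0144), where its groups overlapped. Its dimmer probe gave 0.26, and slide took 95.4% of its spread. The call ended under 2 of 14 alternatives and without any 1 of replicates 36 and 49 (adjusted p of 0.0514 to 0.0553). Cyp2d genes are relatives that lie together on chromosome 15. Their sequences were not compared here, and their probes may share signal.

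Enzymes of sterol and bile acid metabolism moved in both directions. Cyp39a1, an oxysterol hydroxylase, read 0.73, 0.63, 0.56 and 0.75 with saline and 1.52, 1.34, 1.28 and 1.27 with dexamethasone in wild type at 4 h, and 0.80, 0.81, 0.79 and 1.07 and 1.68, 1.69, 1.62 and 1.58 in the knockout at 8 h. It rose 1.61-fold and 1.62-fold in wild type at 4 and 8 h and 1.57-fold and 1.72-fold in the knockout (adjusted p of 1.11e-05 or less), and these calls held under every alternative and every left-out array. Cyp27a1, the mitochondrial sterol hydroxylase, read -1.89, -1.99, -1.77 and -1.76 with saline and -0.89, -0.86, -0.70 and -0.90 with dexamethasone in wild type at 4 h, a 2.02-fold rise (log2 1.01 ± 0.11 SE, adjusted p = 1.44e-07). At 8 h it rose 1.57-fold in wild type and 1.36-fold in the knockout, where dexamethasone arrays read -0.37, -0.70, -1.03 and -1.05 and the call ended under 1 of 14 alternatives. Cyp7b1, the oxysterol hydroxylase of the alternative bile acid pathway, went the other way in wild type. Its wild-type arrays at 8 h read -0.88 ± 0.14 (SD, n = 3) with saline and -1.93 ± 0.06 (SD, n = 3) with dexamethasone, without overlap, a 2.07-fold fall (log2 -1.05 ± 0.12 SE, adjusted p = 1.59e-06), after a 1.40-fold fall at 4 h (adjusted p = 8.35e-04). In the knockout the same changes were 0.04 and -0.06, with adjusted p-values of 0.818 and 0.675. Cyp24a1, Cyp27b1, Cyp8b1 and Cyp46a1 were called in none of the 4.

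Cyp4f18, which oxidises leukotriene B4 in myeloid cells, read 0.45, 1.50, 0.58 and 0.65 with saline and -0.57, -0.04, -0.02 and -0.37 with dexamethasone in wild type at 4 h, and 0.64, 0.58, 0.46 and 0.47 and 0.13, -0.67, -0.52 and -0.03 in the knockout at 8 h. It fell 2.06-fold and 1.83-fold in wild type at 4 and 8 h and 1.58-fold and 1.75-fold in the knockout (adjusted p-values of 1.02e-04, 0.00474, 0.0108 and 0.00127), without overlap. The call in the knockout at 4 h ended without replicate 43 (adjusted p = 0.0627). In the same comparisons all 6 B cell markers were lower, as given above, and 3 of 5 T cell markers, whose mean was -2.40 to -1.72 on saline arrays and -3.62 to -2.69 on dexamethasone arrays. Of 5 alveolar macrophage markers, 0 to 3 were higher and 0 to 1 lower, with a mean of 2.24 to 2.61 on saline arrays and 2.35 to 2.89 on dexamethasone arrays. The part of these cells in the fall of Cyp4f18 was not tested. Cyp4f39, a hydroxylase of very long fatty acids, read -1.57, -2.14 and -1.92 with saline and -3.39, -3.60, -3.36 and -3.66 with dexamethasone in the knockout at 4 h, a 3.09-fold fall (log2 -1.63 ± 0.20 SE, adjusted p = 8.35e-07). It fell 2.45-fold in wild type at 4 h, and 1.53-fold and 1.58-fold at 8 h in wild type and knockout. The wild-type call at 8 h, with overlapping groups, ended under 7 of 14 alternatives and without any 1 of replicates 37, 38, 54 and 55 (adjusted p of 0.0504 to 0.300), and its within-slide difference on slide 1 had the opposite sign. Cyp2j9, an arachidonic acid epoxygenase, read -0.32, -0.27, -0.12 and -0.30 with saline and -0.75, -1.02, -0.80 and -0.80 with dexamethasone in wild type at 4 h and fell by 0.59, 0.37, 0.32 and 0.41 in the 4 comparisons (adjusted p of 0.00483 or less), and the call in wild type at 8 h ended under 1 of 14 alternatives. Cyp2j13 was called lower in wild type at 4 h (-0.26) and in the knockout at 4 h (-0.68) and 8 h (-0.37), but its dimmer probe changed by 0.73 and 0.15 at 4 h, so its probes disagreed in direction there. The wild-type call ended under 4 of 14 alternatives and without any 1 of replicates 33, 35, 50 and 51 (adjusted p of 0.0640 to 0.129). Its knockout calls each ended under 2 of 14 alternatives, both on other probe choices. Cyp2c23, an epoxygenase, fell by 0.51 and 0.78 in wild type at 4 and 8 h (adjusted p of 4.68e-04 and 4.61e-05). Cyp4v3, another fatty acid hydroxylase, rose in the knockout, by 0.23 at 4 h (adjusted p = 0.0280) and 0.40 at 8 h (adjusted p = 1.86e-04), against -0.03 and 0.05 in wild type. The call at 4 h ended under 6 of 14 alternatives and without any 1 of replicates 43, 57, 58 and 59 (adjusted p of 0.0570 to 0.165). Among the smaller calls, Cyp2j6 (-0.40) and Cyp2r1 (-0.20) were lower in wild type at 4 h, Cyp4f16 (-0.95) in wild type at 8 h and Cyp4f13 (-0.27) in the knockout at 8 h. The call of Cyp2j6 ended under 2 of 14 alternatives, and its dimmer probe gave -0.0052. The call of Cyp2r1 ended under 6 of 14 alternatives and without any 1 of replicates 34, 35, 36, 50, 51 and 52 (adjusted p of 0.0522 to 0.191). That of Cyp4f13 ended under 5 of 14 alternatives and without any 1 of replicates 45, 46, 47, 62, 63 and 64 (adjusted p of 0.0580 to 0.175). Cyp4f16 read -3.07, -1.19 and -1.21 on its dexamethasone arrays, so that 1 array lay far below the others. Without it the change was -0.32, the dimmer probe gave -0.31, and the difference within slide 1 was -0.09. The call ended under 4 of 14 alternatives and without any 1 of replicates 37, 38 and 54 (adjusted p of 0.0631 to 0.287).

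The Ahr targets Cyp1a1 and Cyp1a2 were called in no dexamethasone comparison. Cyp1a1 read -0.30, -1.05, -0.51 and -1.11 with saline and -0.22, 1.66, 0.04 and 0.26 with dexamethasone in wild type at 4 h, and its arrays spanned -2.23 to 2.63 with saline in the knockout at 8 h, so that single arrays stood far from the rest of their group. Cyp1b1, which also metabolises steroids, rose in the knockout at 8 h, from -1.27, -1.40, -1.09 and -0.92 to -0.74, -0.45, -0.70 and -0.64 (log2 0.54 ± 0.15 SE, adjusted p = 0.00660), and its other changes were 0.37, 0.32 and 0.22, with adjusted p-values of 0.0629, 0.211 and 0.311. Cyp26b1, which breaks down retinoic acid, scattered widely: in the knockout at 4 h it read 3.82, 1.39 and 1.32 with saline and -0.95, -2.49, -1.77 and 1.72 with dexamethasone, overlapping groups with a log2 change of -3.05 ± 0.98 (SE, adjusted p = 0.0157). That call ended under 2 of 14 alternatives and without any 1 of replicates 41 and 58 (adjusted p of 0.0583 to 0.110), slide as a fixed block among these alternatives, and 2 arrays of other groups had no usable spot. Cyp11a1, the side-chain cleavage enzyme of steroid synthesis, fell by 1.36 in wild type at 4 h and 1.39 in the knockout at 4 h (adjusted p of 0.00546 and 0.00712). With normexp and quantile normalization the changes were -0.40 and -0.33, and the knockout call ended under 1 of 13 alternatives, the dimmest kept probe (adjusted p = 0.154). Its arrays spanned -5.87 to -4.97 with saline and -7.66 to -6.21 with dexamethasone in wild type at 4 h, where 2 of the 4 dexamethasone arrays were well above background, and adrenal cortex markers averaged -5.68 to -3.85 over the arrays. At 8 h its changes were -1.01 and -0.83, with adjusted p-values of 0.0927 and 0.0754.

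Of the 62 P450 genes, 3 to 5 were called between knockout and wild type in each of the 4 conditions. The share called was below that of all genes with saline. It was above that of all genes with dexamethasone, where it rests on 3 genes at 4 h and 5 at 8 h. With saline at 4 h, 2 of 62 were higher and 2 lower in the knockout (6.45% called against 23.6% of all genes, of which 6.68% higher and 17.0% lower). With saline at 8 h, 1 was higher and 4 lower (8.06% called against 13.5%, of which 5.27% higher and 8.26% lower). With dexamethasone at 4 h, 1 was higher and 2 lower (4.84% called against 0.958%, of which 0.293% higher and 0.664% lower). With dexamethasone at 8 h, 2 were higher and 3 lower (8.06% called against 5.25%, of which 3.19% higher and 2.06% lower). Averaged over the 4 conditions, 3 were higher and 4 lower (11.3% called against 19.4%, of which 8.74% higher). Cyp3a13 was lower in the knockout in all 4 conditions and Cyp4f15, an enzyme of leukotriene and fatty acid oxidation, in 3 of 4. Their upstream windows are shown with each CACCC, a short sequence that Krüppel-like factors are known to bind, in capitals (GGGTG where it lies on the other strand). They are the 250 bases before the starts of Cyp3a13 (chr5:137921620-137921869, minus strand) and Cyp4f15 (chr17:32685409-32685658, plus strand), from RefSeq on GRCm38.p6, 5′ to 3′.
Cyp3a13: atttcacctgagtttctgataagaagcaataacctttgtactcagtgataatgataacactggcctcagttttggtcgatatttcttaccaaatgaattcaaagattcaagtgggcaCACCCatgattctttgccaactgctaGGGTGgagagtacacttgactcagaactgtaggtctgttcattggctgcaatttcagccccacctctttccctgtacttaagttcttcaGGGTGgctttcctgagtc
Cyp4f15: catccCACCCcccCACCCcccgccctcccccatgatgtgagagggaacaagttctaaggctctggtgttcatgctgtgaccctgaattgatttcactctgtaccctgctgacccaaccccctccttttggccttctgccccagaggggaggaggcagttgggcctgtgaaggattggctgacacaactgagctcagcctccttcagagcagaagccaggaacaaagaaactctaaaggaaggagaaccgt
Cyp3a13 has 3 matches, beginning at -133, -107 and -18 relative to the start, and Cyp4f15 has 2, at -245 and -237. The sequence is common: it was in 37 of the family's 65 windows and in 52% of all windows of this length, and a match is no evidence of binding.

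Cyp3a13 at 4 h with saline read -1.10, -1.14, -1.02 and -0.77 in wild type and -1.43, -1.58 and -1.57 in the knockout. At 8 h with dexamethasone, where its wild-type level was highest, it read 0.67, 0.34 and 0.29 in wild type and -0.66, -0.35, -0.39 and -0.43 in the knockout. Wild-type and knockout arrays did not overlap in any of the 4 conditions. With saline at 4 and 8 h and dexamethasone at 4 and 8 h, 11, 15, 9 and 10 of the 62 members did not overlap. The shares of all genes were 37.6, 27.2, 6.05 and 21.7%. The knockout was lower by 0.52 and 0.81 with saline at 4 and 8 h and by 0.66 and 0.89 with dexamethasone on the log2 scale, with adjusted p-values of 0.00317, 1.54e-04, 7.52e-04 and 3.02e-05. On average it was 1.65-fold lower (log2 -0.72 ± 0.06 SE, adjusted p = 3.14e-09). Cyp3a13 also rose with dexamethasone in both genotypes, and the dexamethasone effects did not pass the test of a difference between genotypes (-0.14 at 4 h, adjusted p = 0.587, and -0.08 at 8 h, adjusted p = 0.790). Cyp4f15 read 0.42, -0.23 and 0.20 in wild type and -0.86, -0.91, -0.57 and -0.85 in the knockout with dexamethasone at 8 h, and -0.32, -0.19 and -0.10 and -1.06, -1.24, -0.81 and -1.19 with saline. Its differences were -0.35 and -0.87 with saline at 4 and 8 h and -0.87 and -0.92 with dexamethasone, with adjusted p-values of 0.180, 0.00510, 0.0108 and 0.00546, and -0.75 on average (adjusted p = 7.87e-06). With slide as a fixed block, the difference with dexamethasone at 4 h had an adjusted p of 0.0522 for Cyp3a13 (log2 change -0.58) and 0.0979 for Cyp4f15 (log2 change -0.81), and the Cyp4f15 call there ended under 2 of 14 alternatives and without any 1 of replicates 51 and 58 (adjusted p of 0.0637 to 0.0651). With only the groups compared in the fit, the calls of both genes with dexamethasone ended at 4 h and at 8 h (adjusted p at 8 h of 0.0596 for Cyp3a13 and 0.101 for Cyp4f15). On slide 1, the only slide to hold wild-type and knockout saline arrays of 8 h, the differences were -0.86 for Cyp3a13 and -1.09 for Cyp4f15, and no slide held both genotypes in the other 3 conditions. Cyp4f15 was called in no dexamethasone comparison.

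**Figure D3:**
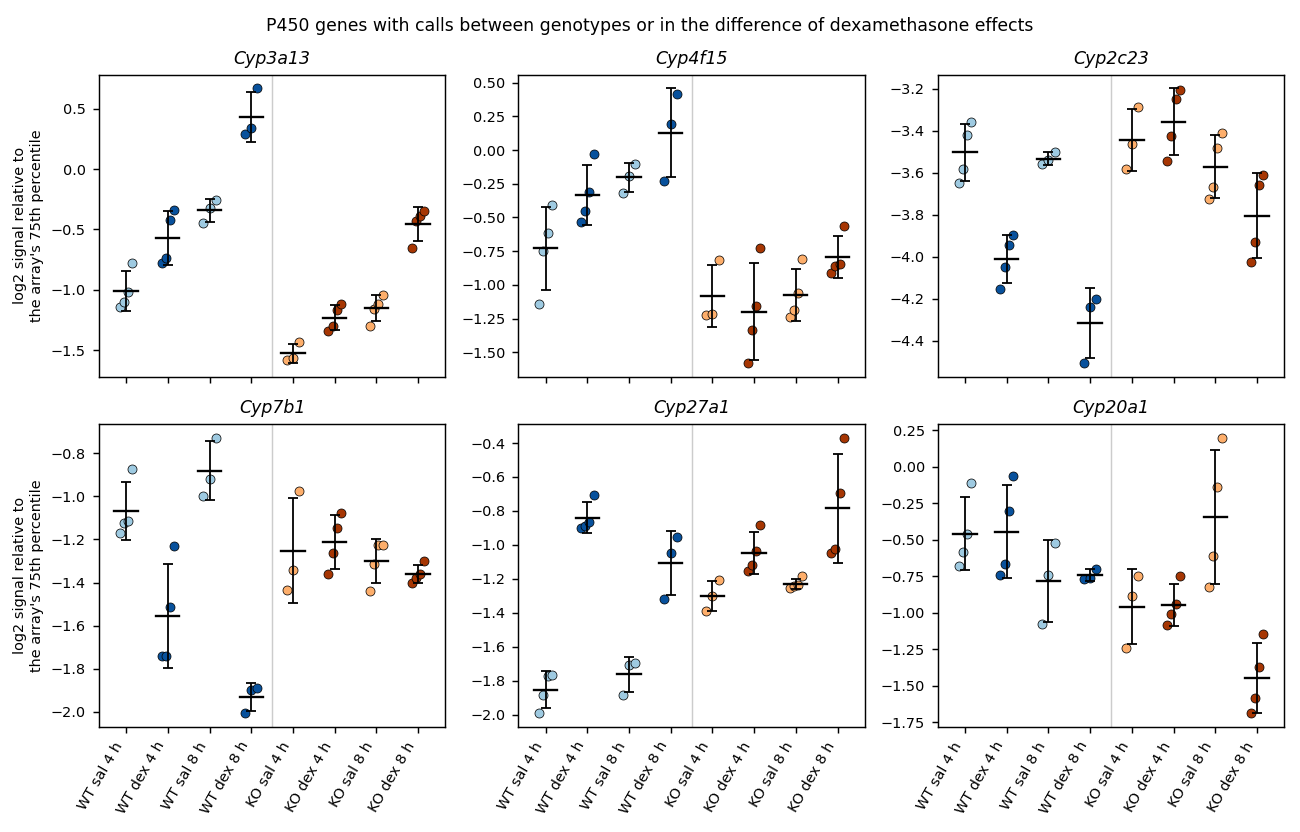
Levels of 6 further P450 genes on each array (vertical axis, log2 over the 75th percentile of the array), by group (labels and bars as in the plot of genes raised and lowered by dexamethasone). Knockout arrays of Cyp3a13 lie below the wild-type arrays of the same condition, and Cyp7b1 and Cyp2c23 are lower with dexamethasone in wild type, while their knockout changes were not called.

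Cyp27a1 was higher in the knockout with saline, by 0.55 at 4 h and 0.53 at 8 h (adjusted p of 0.00297 and 0.00657), where saline arrays at 8 h read -1.71, -1.70 and -1.88 in wild type and -1.19, -1.24, -1.26 and -1.24 in the knockout. The call at 4 h ended under 2 of 14 alternatives, where the difference was 0.36 with normexp (adjusted p = 0.0644). With dexamethasone its differences were -0.21 and 0.32, neither called. Cyp2s1 was lower in the knockout with saline at 4 h (-0.37, overlapping groups) and 8 h (-0.41), and the calls ended at 4 h under 7 of 14 alternatives and without any 1 of replicates 33, 43 and 44 (adjusted p of 0.0598 to 0.103) and at 8 h under 6 of 14 alternatives and without replicate 39 (adjusted p = 0.0546), at both times with quantile normalization, normexp and cyclic loess. Cyp1a2 was called higher with saline at 4 h (2.11, adjusted p = 0.0487), with overlapping groups of -8.92 to -6.04 in wild type and -6.26 to -4.27 in the knockout. Only 2 of the 4 wild-type arrays were well above background, the difference was 0.41 with normexp, and the call ended under 9 of 13 alternatives and without any 1 of replicates 33, 36, 41, 43 and 44 (adjusted p of 0.0523 to 0.230). Cyp2c23 was higher in the knockout with dexamethasone, by 0.65 at 4 h and 0.51 at 8 h (adjusted p of 7.54e-04 and 0.00961), and the call at 8 h ended under 1 of 14 alternatives and without replicate 54 (adjusted p = 0.0676). Cyp7b1 was lower in the knockout with saline at 8 h (-0.42, adjusted p = 0.0194), a call that ended under 4 of 14 alternatives and without any 1 of replicates 37 and 46 (adjusted p of 0.0592 to 0.107). It was higher with dexamethasone at 8 h (0.57, adjusted p = 0.00503), where the adjusted p was 0.135 with slide as a fixed block. Cyp20a1 was lower with dexamethasone at 8 h (-0.70, adjusted p = 0.0497), a call that ended under 9 of 14 alternatives and when any 1 of the 7 arrays was left out. Averaged over the conditions, Cyp20a1 was lower (-0.32), Cyp2s1 lower (-0.17) and Cyp4f39 higher (0.30). The averaged call of Cyp20a1 ended under 1 of 14 alternatives and without any 1 of replicates 37, 41, 45, 47, 49 and 55 (adjusted p of 0.0503 to 0.0685). That of Cyp2s1 ended under 5 of 14 alternatives and without replicate 43 (adjusted p = 0.0512). That of Cyp4f39 ended under 5 of 14 alternatives and without any 1 of replicates 36, 37, 39, 41, 45, 51, 52, 54, 55, 57, 59 and 61 (adjusted p of 0.0530 to 0.0847).

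The dexamethasone effect differed between genotypes for 3 members at each time. At 4 h, 2 were higher and 1 lower in the knockout (4.84% called against 14.3% of all genes, of which 10.8% higher and 3.56% lower). At 8 h the counts were the same (4.84% called against 6.49%, of which 4.81% higher and 1.67% lower). Cyp7b1 fell in wild type and had changes near 0 in the knockout, and the difference was 0.99 ± 0.16 (SE, adjusted p = 0.00302) at 8 h, which held under every alternative and every left-out array, and 0.53 ± 0.16 (adjusted p = 0.0293) at 4 h. At 4 h the call ended under 3 of 14 alternatives and without any 1 of replicates 36, 43, 44, 49, 52, 57 and 58 (adjusted p of 0.0621 to 0.0993), and with slide as a fixed block the adjusted p was 0.110. At 8 h with dexamethasone, the knockout arrays of Cyp7b1 read -1.30, -1.38, -1.36 and -1.40, against -1.93 ± 0.06 (SD, n = 3) in wild type. Cyp2c23 read -3.36, -3.58, -3.65 and -3.42 with saline and -4.05, -3.90, -4.15 and -3.94 with dexamethasone in wild type at 4 h, and -3.58, -3.29 and -3.46 and -3.54, -3.43, -3.25 and -3.20 in the knockout. Its difference was 0.60 ± 0.15 (adjusted p = 0.0162) at 4 h, which held under every alternative, and 0.55 ± 0.16 (adjusted p = 0.0433) at 8 h, which ended under 10 of 14 alternatives and without any 1 of replicates 37, 38, 39, 45, 46, 48, 54, 55, 62 and 64 (adjusted p of 0.0518 to 0.101). Cyp27a1 rose less in the knockout at 4 h, with a difference of -0.76 ± 0.16 (adjusted p = 0.00790), where its knockout saline arrays lay above the wild-type ones, and that call ended under 2 of 14 alternatives. Cyp20a1 fell in the knockout at 8 h alone, from -0.61, 0.20, -0.82 and -0.14 with saline to -1.15, -1.37, -1.59 and -1.68 with dexamethasone (log2 -1.10 ± 0.19 SE, adjusted p = 7.36e-05). The difference from wild type was -1.14 (adjusted p = 0.0268) and that from 4 h -1.11 (adjusted p = 0.0297), and both calls depended on single arrays. The first ended under 5 of 14 alternatives and without any 1 of replicates 38, 39, 55 and 64 (adjusted p of 0.0523 to 0.0642). The second ended under 2 of 14 alternatives and without any 1 of replicates 41, 44, 46, 48, 58, 60, 63 and 64 (adjusted p of 0.0531 to 0.123). With slide as a fixed block these differences were -1.37 (adjusted p = 0.0543) and -1.20 (adjusted p = 0.0573). These comparisons share saline and dexamethasone arrays with the genotype comparisons above.

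Between the times, 1 to 5 members were called in each comparison. The dexamethasone effect at 8 h differed from that at 4 h for Cyp7b1 in wild type (-0.56, adjusted p = 0.0398), a call that ended under 7 of 14 alternatives and without any 1 of replicates 33, 34, 35, 37, 38, 50, 51, 55 and 56 (adjusted p of 0.0615 to 0.114). This is 1.61% of members against 6.17% of all genes, of which 2.81% were higher and 3.36% lower. In the knockout it differed for Cyp2e1, higher, and Cyp20a1, lower, as given above (3.23% against 3.04%, of which 1.35% higher and 1.69% lower), and with slide as a fixed block neither was called, while 2 other members were. Between the saline groups, averaged over genotypes, 4 members were higher and 1 lower at 8 than at 4 h (8.06% called against 3.32% of all genes, of which 2.12% higher and 1.20% lower). Cyp2b10 was higher by 0.44, Cyp2b13 by 0.41, Cyp39a1 by 0.24 and Cyp3a13 by 0.52, with adjusted p-values of 4.26e-04, 3.52e-04, 0.0371 and 3.50e-04, and Cyp4f39 was lower by 0.60 (adjusted p = 0.0173). The Cyp2b13 call ended under 2 of 14 alternatives, the Cyp39a1 call under 6 of 14 alternatives and without any 1 of replicates 34, 35, 37, 39, 43, 44 and 48 (adjusted p of 0.0566 to 0.130), and that of Cyp4f39 without any 1 of replicates 37, 39 and 41 (adjusted p of 0.0509 to 0.0805). The saline level of Cyp2b10 in wild type, for example, was 3.29 ± 0.13 (SD, n = 4) at 4 h and 3.79 ± 0.16 (SD, n = 3) at 8 h.

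The partners of the P450 enzymes moved with dexamethasone in part. Among electron donors, 3 of 7 tested were higher in each of the 4 comparisons: Fdx1, the ferredoxin of mitochondrial P450s, by 0.89, 0.31, 1.07 and 0.64, Por by 0.67, 0.37, 0.62 and 0.73, and the haem-binding Pgrmc1 by 0.22, 0.30, 0.44 and 0.40 (log2, in wild type at 4 and 8 h and knockout at 4 and 8 h). In the same order, 15.2, 9.47, 23.9 and 25.2% of all genes were higher and 21.6, 14.5, 18.5 and 17.7% lower, and nothing is read from list counts near these shares. Of 12 haem enzymes, 1 to 3 were higher and 1 to 5 lower. Cpox of haem synthesis rose in all 4 (0.67, 0.46, 0.79 and 0.61), and Alas1, its rate-limiting enzyme, in 3 (0.33, 0.66 and 0.50; -0.19 in wild type at 8 h). Among 21 nuclear and xenobiotic receptors, 1 to 4 were higher and 2 to 6 lower. Ppara rose in all 4 (1.10, 0.66, 0.65 and 0.94), while Ahr fell at 4 h by 1.23 in wild type and 1.01 in the knockout. The CAR gene Nr1i3 was called in none of the 4, and the PXR gene Nr1i2 in wild type at 4 h (-0.80). Of 10 targets of Ahr and the antioxidant factor Nrf2, 0 to 3 were higher and 1 to 4 lower; Tiparp rose at 4 h (1.42 and 1.98) and Ahrr fell in wild type (-0.68 and -0.75). In retinoid handling, 0 to 4 of 14 were higher and 3 to 7 lower, with Rarg at -0.37 in wild type and -0.76 in the knockout at 4 h.

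Among other enzymes of drug metabolism, counts stand beside the same shares of all genes, 9.47 to 25.2% higher and 14.5 to 21.6% lower. Of 23 further oxidising and hydrolysing enzymes, 5 to 9 were higher and 2 to 5 lower, with the flavin monooxygenase Fmo4 (log2 0.62 to 1.34) up and the alcohol dehydrogenase Adh1 (-1.22, -0.95, -1.22 and -1.01) down in all 4. Of 26 conjugating enzymes, 2 to 11 were higher and 1 to 5 lower, and the sulfotransferase Sult1a1 rose 3.09-fold, 1.85-fold, 3.94-fold and 2.58-fold. Among 14 partners in arachidonic acid metabolism, 2 to 4 were higher and 4 to 7 lower. The prostaglandin dehydrogenase Hpgd rose by 1.09, 0.82, 1.12 and 0.92, and the synthase Ptges fell by 1.73, 0.79, 1.65 and 0.85. Of 12 further steroid enzymes, 0 to 4 were higher and 0 to 3 lower. Of 11 PAR bZIP and clock factors, 3 to 5 were higher and 2 to 5 lower. Tef, a factor known to drive P450 genes in liver, rose in all 4 (1.13, 0.42, 0.79 and 0.43), and its relative Dbp fell in all 4 (-0.94, -1.71, -0.67 and -1.30).

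The members that were never called with dexamethasone varied more between arrays of a group. The SD within groups, pooled over the 8 groups, had a median of 0.842 over the 28 members never called, 0.185 over the 34 called at least once and 0.172 over all genes measured on every array; since a call depends on this spread, the split is a description. Slide, of which there were 8 with 2 to 4 arrays each, took a median of 72.0% of that spread in the members never called, 46.4% in the others and 58.4% over all genes. Cyp17a1, a steroid hormone enzyme, is an example: it read 0.70 to 2.67 on the 8 arrays of slides 1 and 2 and -2.33 to 0.45 on the other arrays, and slide took 96.0% of its spread. A fit of slide takes some share of the spread even where slide has no effect, and that share was not estimated here. Of the 46 members well above background on all arrays, 32 were called at least once, and of the 16 others 2 (Cyp2b23 and Cyp11a1). On slides that held both groups of a dexamethasone comparison, the called members had the pooled sign within the slide in 18 of 19 (wild type at 8 h, slide 1, all but Cyp4f39), 22 of 22 (wild type at 4 h, slides 3 and 7), 16 of 16 (knockout at 4 h, slide 4) and 22 of 22 (knockout at 8 h, slides 3 and 7). Each of these differences is 1 array against 1 array. The members were called on these same arrays, so the same sign was favoured in advance and the counts are a description only.

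**Figure D4:**
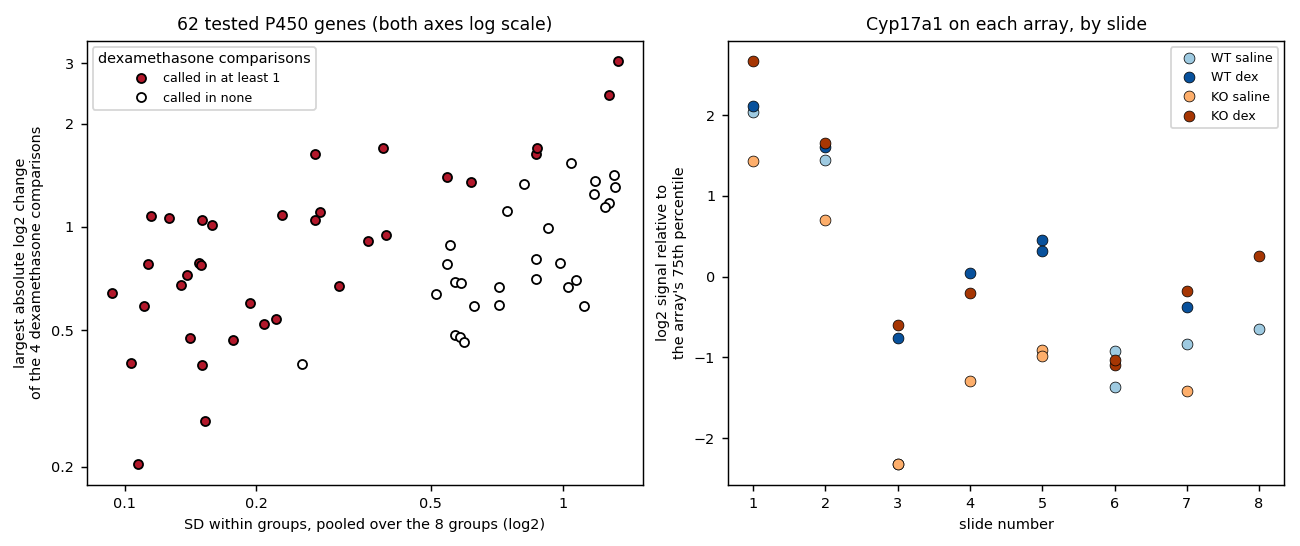
Left, for each of the 62 tested P450 genes, the pooled SD within groups (horizontal, log scale) against the largest absolute log2 change of the 4 dexamethasone comparisons (vertical, log scale), filled where called in at least 1. Right, the log2 signal of Cyp17a1 on each array by slide, coloured by genotype and treatment; arrays of slides 1 and 2 read 0.70 to 2.67 in every group present.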

How the data were processed

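RNA of 29 mouse lung samples was hybridised to 1-colour Agilent 4x44K arrays, 1 sample per array. The deposited scanner files give an intensity for each spot, read by Feature Extraction (Agilent; version 10.7.3.1 in the headers, 10.6 in the submitters' processing notes), background-subtracted and detrended within the array but not scaled between arrays. Their flag columns, a unit of other, are also as deposited, and saturated spots numbered 0. A table deposited for the whole series gives log2 values, with a normalization that no source here states, and served as an alternative only. Array designs refer to mm9.

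The processed signal was taken as log2 minus the array's 75th percentile over all spots but controls, spots flagged as outliers were dropped (0.101 to 0.908% of spots), and spots of a probe were averaged. Of 41174 probes, 24844 were named with 1 gene through their accession and RefSeq, 0 with several, and the others were left unnamed. A probe was kept if at least 3 arrays of any 1 group had it well above background. A gene was its kept probe of highest mean, giving 15350 genes. One limma 3.58.1 model (R 4.3.3) of the 8 group means on all 29 arrays gave the 14 comparisons, with Benjamini-Hochberg adjustment over all genes; a gene was called at an adjusted p under 0.05. The code was tested on simulated data.

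Alternatives were quantile normalization, normexp (offset 50) on the median signal with quantile normalization, other filters, other probes of a gene, the deposited table, slide as a fixed or random block, trended and robust moderation, array weights, only the groups compared and each array left out. Cyclic loess and median scaling were chosen after seeing the data. Members and gene lists were chosen with earlier results of these data known. Values were given for members called with a log2 change of at least 1 under dexamethasone or between genotypes, the 4 of lowest p in each comparison, members of highest mean signal, a few lung P450 genes, and up to 4 genes of lowest p per partner list. Cyp2j9, Cyp2j6, Cyp2r1, Cyp2d12, Cyp2d22, Cyp2d26, Cyp3a11, Cyp4f13, Cyp4f16, Cyp17a1, Nr1i2 and Nr1i3 fell outside this and were chosen after their values were seen. Promoter windows of 250 bases came from RefSeq (GRCm38.p6), and 56 of the 72 members had one.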

Additional observations from a re-analysis of the deposited data

Results flagged for a closer look

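Among the 28 members singled out by the rule for named genes, 137 groups of 4 arrays were searched for an array far from its group, and 4 were found, where chance would give about 6.85. Cyp26b1 read -1.06 on knockout dexamethasone replicate 62 at 8 h, against 1.66 to 1.86 on the other arrays of that group. Cyp2f2 read 6.87 on the same array, against 7.16 to 7.19. Cyp2b9 read 3.80 on wild-type saline replicate 34 at 4 h, against 4.23 to 4.28. Cyp39a1 read 1.07 on knockout saline replicate 48 at 8 h, against 0.79 to 0.81.

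In 9 cases the dexamethasone effect on a P450 gene differed between genotypes or times by the test of the difference itself. Between genotypes at 4 h, knockout minus wild type, the differences were -0.76 for Cyp27a1 (adjusted p = 0.0079), 0.60 for Cyp2c23 (adjusted p = 0.0162) and 0.53 for Cyp7b1 (adjusted p = 0.0293). At 8 h they were -1.14 for Cyp20a1 (adjusted p = 0.0268), 0.55 for Cyp2c23 (adjusted p = 0.0433) and 0.99 for Cyp7b1 (adjusted p = 0.00303). Between times, 8 h minus 4 h, they were -0.56 for Cyp7b1 in wild type (adjusted p = 0.0398), and -1.11 for Cyp20a1 (adjusted p = 0.0297) and 1.46 for Cyp2e1 (adjusted p = 0.0423) in the knockout.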

How the results depend on the processing

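Of 117 calls of P450 genes in the 14 comparisons, 52 held in every alternative and with every array left out, and 65 ended in at least 1. The direction turned for 3 calls: Cyp2j13 in wild type at 4 h gave 0.23 with the mean of its kept probes and 0.73 with the dimmest, Cyp2j13 in the knockout at 4 h gave 0.15 with the dimmest probe, and Cyp4b1 in the knockout at 4 h gave -0.012 under cyclic loess. Among calls that held under the alternatives, the smallest value was over 1.5 times below the main one for Cyp11a1 in wild type at 4 h (-0.40 against -1.36), Cyp2b9 in wild type at 8 h (0.60 against 0.92), in the knockout for Cyp39a1 at 4 h (0.39 against 0.65) and Cyp2b10 (0.52 against 0.78), Cyp4f39 (-0.43 against -0.66) and Cyp4v3 (0.22 against 0.40) at 8 h, and between genotypes for Cyp2c23 with dexamethasone at 4 h (0.42 against 0.65) and on average (0.19 against 0.30). Counts of called members moved by over 1.5 times as follows, and the cause was not tested. With only the groups compared in the fit, which leaves fewer arrays, wild type with dexamethasone at 8 h gave 12 against 19, the genotype comparisons gave 3 against 5 (saline, 8 h), 1 against 3 (dexamethasone, 4 h) and 1 against 5 (dexamethasone, 8 h), the difference of effects at 8 h gave 1 against 3, and the time differences gave 0 against 1 in wild type and 0 against 2 in the knockout. With array weights, the genotype comparisons gave 12 against 4 (saline, 4 h), 28 against 5 (saline, 8 h) and 8 against 5 (dexamethasone, 8 h), the differences of effects 7 and 10 against 3 and 3, and the time differences 2 against 1 and 9 against 2. With slide as a fixed block, the genotype comparisons gave 11 against 5 (saline, 8 h), 3 against 5 (dexamethasone, 8 h) and 13 against 7 (mean), the difference of effects at 4 h 5 against 3, and the time difference in wild type 0 against 1; that in the knockout gave 2 and 2, with 0 shared. With slide as a random block, the counts were 9 against 5 (genotype, saline, 8 h), 12 against 7 (genotype, mean), 5 against 3 (difference of effects, 4 h), 3 against 1 (time difference, wild type) and 8 against 5 (saline, 8 against 4 h). With normexp and with the deposited table alike, the genotype comparisons with saline gave 2 against 4 at 4 h and 3 against 5 at 8 h, the difference of effects at 8 h gave 1 against 3 and the time difference in wild type 0 against 1, and the deposited table also gave 1 against 3 for the difference at 4 h. Median scaling gave 7 against 4 (genotype, saline, 4 h), 3 against 5 (genotype, saline, 8 h), 1 against 3 (difference of effects, 8 h), 0 against 1 and 1 against 2 (time differences). It moved the median of all genes from -0.02 to -0.20 for the genotypes with saline at 4 h, from -0.02 to -0.13 for dexamethasone in wild type at 4 h, and from 0.07 to 0.24 for the difference of effects at 4 h. Quantile normalization and the dimmest probe gave 0 against 1 for the time difference in wild type, and the dimmest probe 1 against 2 for that in the knockout. With each array left out in turn, dexamethasone counts were 17 to 22, 12 to 18, 12 to 16 and 19 to 24 in wild type at 4 and 8 h and knockout at 4 and 8 h. Genotype counts were 2 to 7, 4 to 6, 2 to 4 and 3 to 5 for saline at 4 and 8 h and dexamethasone at 4 and 8 h, and 5 to 10 for the mean. Differences of effects gave 2 to 6 at 4 h and 1 to 4 at 8 h, time differences 0 to 2 in each genotype, and the saline groups 3 to 5. No paired analysis was possible because the groups share no replicate number.

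Groups of 3 or 4 arrays and slides that hold few groups limit what the comparisons can show, and the 16 tested members that were not well above background on every array are limited further by their low signal. Probes of related genes (Cyp2a, Cyp2b, Cyp2d) may share signal. Cell numbers were not measured.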
